A study of Homo sapiens with 12 samples.

Results

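Plasminogen activators, their receptor and their inhibitors were described across cells with and without YAP5SA induction and JUN overexpression. The 6 genes PLAU, PLAUR, PLAT, SERPINE2, SERPINB2 and TFPI2 were taken by name from the 23459 genes of the count table. They were chosen with earlier results of these data known. All 6 had a row in the table, 5 passed the filter on low counts and TFPI2 did not. The study had plotted PLAU from these same libraries, so its values are not independent of that choice.

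PLAU encodes urokinase and PLAT encodes tissue-type plasminogen activator, the serine proteases that cut plasminogen into plasmin. Plasmin dissolves fibrin, degrades pericellular matrix and activates further proteases, and urokinase acts at the cell surface once bound by its receptor, encoded by PLAUR. Serpins trap the activators in irreversible complexes, and their genes include SERPINB2 (PAI-2, made largely inside the cell) and SERPINE2 (protease nexin-1, which also traps thrombin). TFPI2 encodes a Kunitz-type inhibitor of plasmin and related proteases and is not a serpin. In mammary epithelium these genes are known for their part in migration, wound repair and tumour invasion.

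Polyadenylated RNA was sequenced from MCF10A, an immortalized but non-tumorigenic line of human mammary epithelium, which here carried a doxycycline-inducible allele of YAP5SA, a form of the coactivator YAP that the Hippo kinases cannot inactivate. They had taken up either a vector for JUN overexpression or the empty vector, and they received doxycycline (Dox, 100 ng/ml) or ethanol (EtOH) as solvent. This gave 4 groups of 3 libraries each, named by vector and treatment: vector EtOH and vector Dox, then JUN EtOH and JUN Dox. All groups carried the inducible allele, and the controls differed from the others only in the insert of the vector or in receiving the solvent without Dox. An effect of Dox itself therefore cannot be told apart from one of YAP5SA. The length of the Dox treatment stands in the general protocol of the study's methods and not in the labels. The study called the 3 libraries of a group biological replicates. The labels do not say whether the cells were a clone or the replicates separate cultures, so p-values measure the spread between these libraries. The question put to these genes was how each answered YAP5SA induction and JUN overexpression, alone and together.

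Total counts ranged from 18594867 to 28993487 per library. JUN was at 47.6 ± 10.5 CPM without and 189.7 ± 4.15 with Dox in vector cells, and at 1279 ± 187 and 1248 ± 92.3 CPM in JUN cells (CPM, counts scaled to library size, mean ± SD, n = 3), where reads of the vector insert and of the endogenous gene cannot be told apart. JUN changed with induction by 1.99 log2 units in vector cells (edgeR adjusted p 3.09e-07) and by -0.03 in JUN cells (edgeR adjusted p 0.91). The inductions differed by -2.03 for JUN (edgeR adjusted p 0.000133), so induction in vector cells came with a rise of JUN RNA. YAP1, whose reads likewise join allele and transgene, changed with induction by 0.40 log2 units in vector cells (edgeR adjusted p 0.0819) and by 0.26 in JUN cells (edgeR adjusted p 0.308). Keratin gene KRT5 lay between 2120 and 4700 CPM in every library. PTPRC of leukocytes, COL1A2 of fibroblasts and CDH5 of endothelial cells had at most 3 counts in any library. Other entries of the marker lists were not silent and moved with the groups. The summed level of the 3 leukocyte markers, nearly all CD68 and CD14, ranged over 54.1 to 58.9 CPM without and 22.8 to 24.2 with Dox in vector cells, and over 87.3 to 103 and 52.2 to 72.4 CPM in JUN cells. The sum of the 4 fibroblast markers, mostly DCN, covered 8.08 to 11.9, 4.28 to 5.15, 14.6 to 26.6 and 9.77 to 19.7 CPM in the same order. That of the 5 luminal markers, mostly KRT8 and KRT18, covered 1270 to 1460, 1510 to 1530, 699 to 920 and 501 to 872 CPM, and that of the 6 basal markers 6610 to 6910, 3600 to 4440, 5070 to 6650 and 3010 to 5020 CPM. The sum of the 3 endothelial markers was at most 2.1 CPM. Members of a list did not always move together. From vector EtOH to JUN EtOH the mean of CD68 rose from 28.9 to 84.8 CPM, whereas that of CD14 fell from 26.9 to 10.1. The basal sum was mostly KRT5 and KRT17. In the same comparison KRT14 rose from 209 to 481 CPM and TP63 from 14.2 to 27.4. KRT5 fell from 4610 to 3520 CPM and EPCAM from 146 to 43, and KRT17 and CDH1 changed less in proportion. The part of these shifts in the results was not tested. Here as in any bulk sample, fewer expressing cells and less RNA per cell cannot be told apart.

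JUN acts as part of AP-1, a dimer of JUN and FOS family proteins that binds TGANTCA (N is any base), so the 250 bases before the RefSeq start sites (GRCh38.p14) were searched for it. The table held 7 such windows for 5 of the 6 genes, and the gene without an entry was PLAT. PLAUR, SERPINB2 and TFPI2 each had 1 match in their windows. PLAU, with 2 windows, and SERPINE2, with 2 windows, had none. The same letters, which read alike on both strands, occurred in 6.57% of all 35116 windows of this length. The windows of PLAUR (chr19:43670170-43670419, minus strand), SERPINB2 (chr18:63887455-63887704, plus strand), TFPI2 (chr7:93890754-93891003, minus strand) and the downstream of the PLAU starts (chr10:73910882-73911131, plus strand) are printed to show genes with and without the letters, 5′ to 3′ on the gene's strand, with the matched bases in capitals.
PLAUR: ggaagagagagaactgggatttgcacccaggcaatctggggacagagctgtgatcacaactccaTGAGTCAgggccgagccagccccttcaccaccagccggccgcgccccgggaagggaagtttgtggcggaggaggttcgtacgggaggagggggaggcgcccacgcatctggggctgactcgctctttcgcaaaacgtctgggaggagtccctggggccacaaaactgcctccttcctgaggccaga
SERPINB2: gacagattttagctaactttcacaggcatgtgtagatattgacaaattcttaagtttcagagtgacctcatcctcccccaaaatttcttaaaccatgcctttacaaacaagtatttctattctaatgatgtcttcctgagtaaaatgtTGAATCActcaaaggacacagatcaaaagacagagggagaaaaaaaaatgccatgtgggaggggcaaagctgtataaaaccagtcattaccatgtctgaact
TFPI2: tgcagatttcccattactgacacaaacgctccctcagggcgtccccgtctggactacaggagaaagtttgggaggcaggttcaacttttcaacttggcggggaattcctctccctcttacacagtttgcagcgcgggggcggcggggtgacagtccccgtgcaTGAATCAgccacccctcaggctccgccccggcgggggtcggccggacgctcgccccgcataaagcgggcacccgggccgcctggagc
PLAU: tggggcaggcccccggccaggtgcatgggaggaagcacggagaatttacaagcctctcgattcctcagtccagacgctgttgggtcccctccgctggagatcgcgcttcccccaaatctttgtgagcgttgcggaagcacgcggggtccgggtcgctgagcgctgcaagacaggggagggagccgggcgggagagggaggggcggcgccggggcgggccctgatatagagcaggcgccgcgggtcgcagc
The match in PLAUR was TGAGTCA, 186 to 180 bases upstream of the start. The matches in SERPINB2 (102 to 96 bases upstream) and TFPI2 (87 to 81 bases upstream) were TGAATCA. The cyclic AMP response element TGACGTCA (1.65% of all windows) and the TEAD letters GGAATG on either strand (11.9% of all windows) were not found in any of the 7 windows. These letters are a description of the sequence, and their absence from a window says nothing about binding elsewhere.

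JUN overexpression without YAP5SA induction moved all 5 tested genes past the threshold (edgeR quasi-likelihood test, Benjamini-Hochberg adjusted p under 0.05), 4 up and 1 down. Both activators, the receptor and SERPINB2 rose, and SERPINE2 fell. The background was high, since 39% of the 14775 tested genes passed in this comparison, 20.1% higher and 18.9% lower. The median log2 fold change of the 5 genes was 1.47, against 0.000556 over all tested genes.

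For each of the 5 genes the log2 fold change with YAP5SA induction was smaller in size than that with JUN. In vector cells 3 of the 5 passed, PLAUR and SERPINB2 higher and PLAT lower, where 30.1% of all tested genes passed, 15.6% higher and 14.4% lower. In JUN cells 3 of the 5 passed, PLAT and SERPINB2 higher and PLAU lower, where 21.4% of all tested genes passed, 11.2% higher and 10.3% lower. The medians of the 5 were -0.10 and 0.03 on the log2 scale, against 0.00719 and 0.00317 over all tested genes. With induction, JUN against vector cells again gave 4 higher and 1 lower (35.6% of all tested genes passed, 18.4% higher and 17.2% lower), with a median of 2.10. Groups that did not overlap were common, at 43.9% of tested genes for induction in vector cells, 39.3% for induction in JUN cells, 57.8% for JUN without induction and 43.4% for JUN with induction. Comparisons share libraries, so their counts are not independent of each other.

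**Figure D1:**
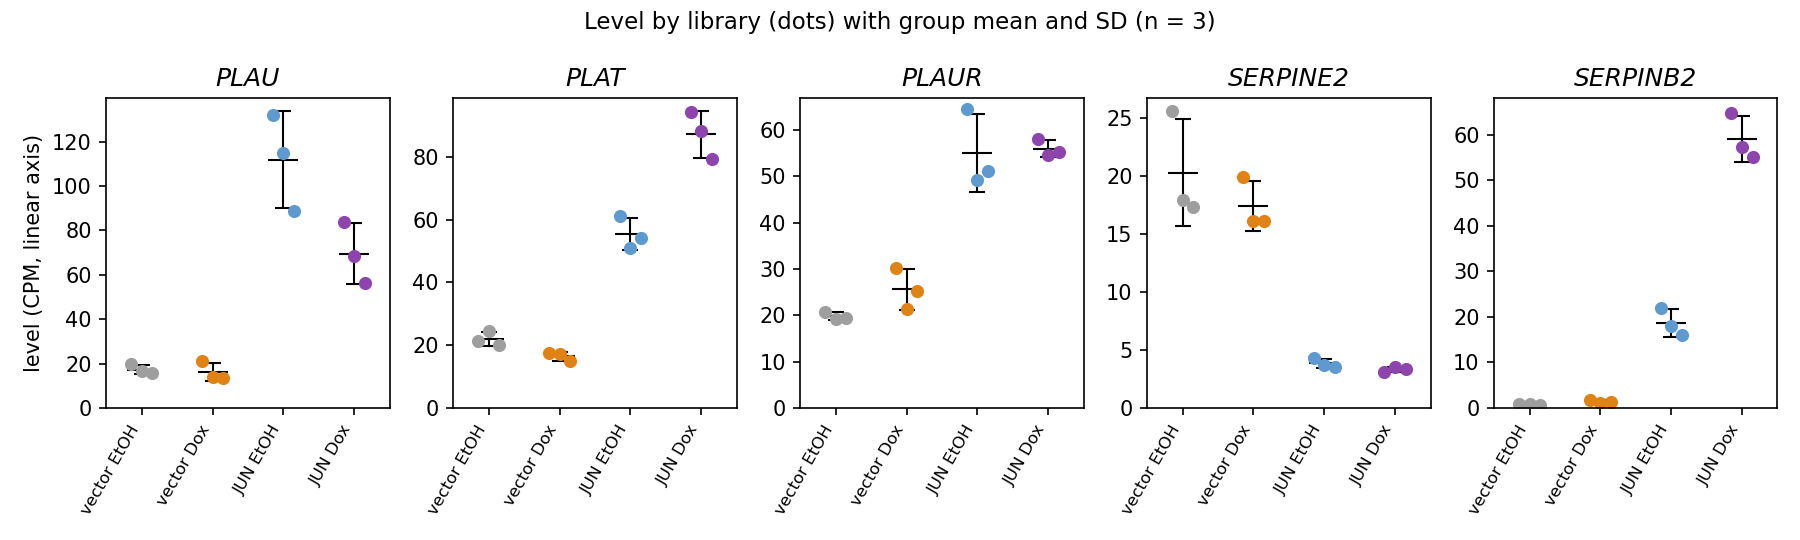
Level of each detected gene by library in CPM on linear axes that start at 0 and differ between panels. Dots are libraries, horizontal lines are group means and bars are the SD (n = 3). PLAU was highest in JUN EtOH, PLAT and SERPINB2 in JUN Dox, PLAUR was alike in both JUN groups, and SERPINE2 was higher in the vector groups than in the JUN groups.

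PLAU (Entrez gene 5328, GRCh37 chr10:75668935-75677254, plus strand), the urokinase gene, stood at 19.6, 16.7 and 15.6 CPM in the vector EtOH libraries and at 21.0, 14.1 and 13.5 in vector Dox. It reached 132.0, 114.7 and 88.9 CPM in JUN EtOH but 83.9, 68.6 and 56.2 in JUN Dox. Every JUN library lay above every vector library, the vector groups overlapped, and every JUN Dox library lay below every JUN EtOH library. JUN raised PLAU by 2.69 log2 units without induction (SE 0.197, 6.46-fold, edgeR adjusted p 1.31e-07) and by 2.10 with induction (SE 0.195, 4.29-fold, edgeR adjusted p 1.37e-06). Induction lowered it in JUN cells by a log2 fold change of -0.69 (SE 0.183, edgeR adjusted p 0.0142). This call was lost when JUN EtOH replicate 1 (edgeR adjusted p 0.0777), JUN Dox replicate 2 (0.0502) or JUN Dox replicate 3 (0.0608) was left out. In vector cells the change was -0.10 (95% interval -0.516 to 0.318, edgeR adjusted p 0.746). The induction effects differed by -0.59 (95% interval -1.16 to -0.0184), which did not pass adjustment (unadjusted p 0.0439, edgeR adjusted p 0.525).

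Reads of PLAU could not be separated from those of C10orf55, a long non-coding RNA gene on the opposite strand (GRCh37 chr10:75669727-75682535). The count of C10orf55 exceeded that of PLAU by 2 to 12 reads, or 0.4% to 3.28%, in every library, and it gave a log2 fold change of 2.67 for JUN without induction (SE 0.194, edgeR adjusted p 1.2e-07). In the annotation used here their exons share 915 bases, which are 31.0% of the exon bases of PLAU and 36.4% of those of C10orf55. The counting did not state any use of strand, so the values given for PLAU are of the locus.

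PLAT (Entrez gene 5327), the tissue-type activator, stood at 21.4, 24.5 and 20.0 CPM in vector EtOH and at 17.5, 17.04 and 14.9 in vector Dox. It reached 61.0, 51.0 and 54.1 CPM in JUN EtOH, and then 94.3, 88.2 and 79.4 in JUN Dox. None of the 4 groups overlapped another. JUN raised PLAT by 1.33 log2 units without induction (SE 0.114, edgeR adjusted p 5.77e-07) and by 2.41 with induction (SE 0.117, 5.3-fold, edgeR adjusted p 2e-09). Induction moved it in opposite directions, by -0.41 in vector cells (SE 0.116, edgeR adjusted p 0.014) and by 0.66 in JUN cells (SE 0.110, edgeR adjusted p 0.000622). The fall in vector cells was not called without vector EtOH replicate 2 (edgeR adjusted p 0.0614) or vector Dox replicate 3 (0.0697). The difference between the inductions was 1.07 log2 units (SE 0.160, 95% interval 0.73 to 1.41, edgeR adjusted p 0.00238). PLAT was the 1 gene of the 5 that passed this test, which 1.12% of all tested genes passed (0.291% higher and 0.826% lower), and it passed in all 18 alternatives, with values from 0.996 to 1.15.

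The activators thus ended in different groups, with PLAU highest in JUN EtOH and PLAT highest in JUN Dox. Per kilobase of exon, the level of PLAU was 2.09 ± 0.307 times that of PLAT without and 2.57 ± 0.52 times with Dox in vector cells, and 5.32 ± 0.865 and 2.09 ± 0.247 times in JUN cells (SD, n = 3). The ratio was 4.33 to 5.93 in the JUN EtOH libraries, above the 1.86 to 2.35 of the JUN Dox libraries and above every vector library. The other 3 groups overlapped. The size of the ratio rests on the exon lengths and on the reads that PLAU shares with C10orf55. It was formed after the values were seen and was not tested.

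PLAUR (Entrez gene 5329, GRCh37 chr19:44150247-44174699, minus strand), the urokinase receptor gene, stood at 20.8, 19.2 and 19.4 CPM in vector EtOH and at 30.3, 21.3 and 25.2 in vector Dox. It stood at 64.6, 49.1 and 51.2 CPM in JUN EtOH and at 58.1, 54.6 and 55.2 in JUN Dox. The JUN groups overlapped each other and lay above both vector groups. JUN raised the receptor by 1.47 log2 units without induction (SE 0.133, 2.77-fold, edgeR adjusted p 1.05e-06) and by 1.13 with induction (SE 0.131, 2.19-fold, edgeR adjusted p 1.21e-05). Induction changed it by 0.03 in JUN cells (95% interval -0.246 to 0.298, edgeR adjusted p 0.921). In vector cells it rose by 0.37 (SE 0.133, edgeR adjusted p 0.0486), and this call held in 4 of 19 alternatives, with adjusted p-values from 0.0143 to 0.195. It was lost when any vector library other than vector Dox replicate 2, or any of JUN EtOH replicates 2 and 3 or the JUN Dox replicates, was left out. The study had PLAUR in the list of YAP and TAZ targets of its SLAM-seq experiment. None of the 6 genes was among its Top-YAP-induced genes. The study drew those from an independent induction experiment, with cuts on fold change and adjusted p. The inductions differed by -0.34 (SE 0.184, edgeR adjusted p 0.664).

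SERPINB2 (Entrez gene 5055, GRCh37 chr18:61538926-61571122, plus strand), the PAI-2 gene, changed most of the 5. It held 22, 17 and 15 reads in the vector EtOH libraries and 39, 24 and 29 in vector Dox. It held 500, 428 and 340 reads in JUN EtOH, and 1292, 1323 and 1550 reads in JUN Dox. In CPM the group means were 0.786 ± 0.0979, 1.33 ± 0.329, 18.7 ± 3.07 and 59.0 ± 5.13 in that order (SD, n = 3), and no group overlapped another. JUN raised it by 4.56 log2 units without induction (SE 0.193, 23.6-fold, edgeR adjusted p 6.19e-10) and by 5.47 with induction (SE 0.178, 44.3-fold, edgeR adjusted p 7.7e-11). By log2 fold change it stood in places 29 and 12 from the top of the 14775 tested genes in these comparisons. Induction raised it by 1.66 in JUN cells (SE 0.136, 3.16-fold, edgeR adjusted p 8.84e-07) and by 0.75 in vector cells (SE 0.252, edgeR adjusted p 0.0354). The rise in vector cells, at 15 to 39 reads per library, was called in 13 of 19 alternatives (adjusted p-values 0.0106 to 0.162). Among single libraries, it was lost without any of the vector EtOH replicates or without vector Dox replicate 1. The inductions differed by 0.91 (95% interval 0.283 to 1.53), which did not pass adjustment (edgeR adjusted p 0.216) here or in any of 18 alternatives.

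With both treatments against neither, SERPINB2 was higher by 6.22 log2 units (SE 0.191, 74.5-fold, edgeR adjusted p 1.83e-11). PLAT and PLAU were higher by 1.99 and 2.003, PLAUR by 1.498, and SERPINE2 lower, at -2.61. All 5 passed the edgeR test, as did 38.2% of all tested genes. A predicted read-through gene on the same strand covers 547 exon bases of SERPINB2, or 20.0% of them, so reads from it would be counted with SERPINB2. Its own neighbour SERPINB10 had 0 counts in every library.

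SERPINE2 (Entrez gene 5270, GRCh37 chr2:224839762-224904035, minus strand), the protease nexin-1 gene, was the 1 gene of the 5 that fell with JUN. It stood at 25.6, 18.0 and 17.3 CPM in vector EtOH and at 19.9, 16.1 and 16.2 in vector Dox. It stood at 4.31, 3.67 and 3.52 CPM in JUN EtOH and at 3.06, 3.501 and 3.38 in JUN Dox, from 61 to 98 reads per JUN library. Both JUN groups lay below both vector groups. JUN changed SERPINE2 by -2.405 log2 units without induction (SE 0.171, 5.3-fold lower, edgeR adjusted p 9.49e-08) and by -2.39 with induction (SE 0.173, 5.24-fold lower, edgeR adjusted p 1.1e-07). By log2 fold change it stood in places 64 and 71 from the bottom of all tested genes. Induction changed it by -0.22 in vector cells (95% interval -0.549 to 0.1, edgeR adjusted p 0.295) and by -0.21 in JUN cells (95% interval -0.607 to 0.191, edgeR adjusted p 0.485). The difference between the inductions was 0.02 (95% interval -0.506 to 0.539, edgeR adjusted p 0.995).

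TFPI2 (Entrez gene 7980, GRCh37 chr7:93514708-93520065, minus strand) was not detectable at this depth. It had 0 counts in 11 libraries and 1 count in JUN Dox replicate 3. A count of 0 allows up to 3 counts, which was 0.107 to 0.15 CPM by library, and this limit covers counting error only.

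**Figure D2:**
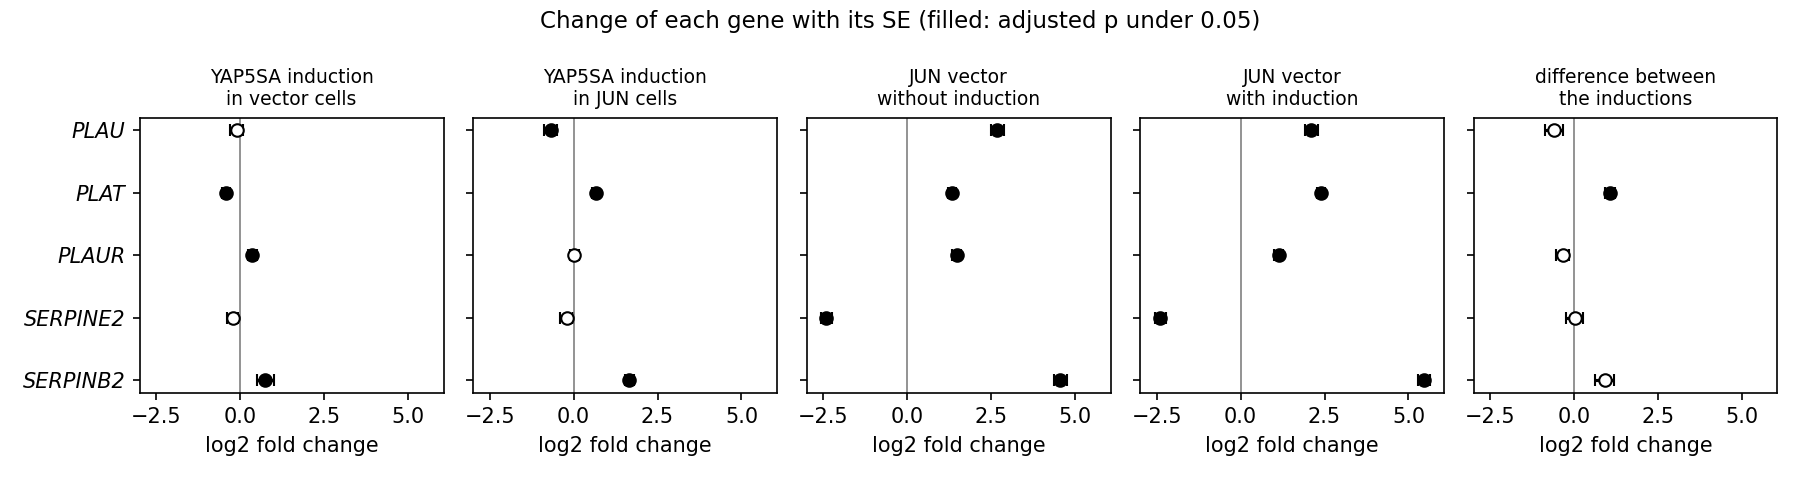
Log2 fold change of the 5 tested genes in 4 pairwise comparisons and in the difference between the inductions, with the SE of each estimate. Filled symbols passed the edgeR test at an adjusted p under 0.05. SERPINE2 lies left of 0 in both JUN comparisons (-2.405 and -2.39) and the other genes lie to the right, whereas the difference between the inductions passed for PLAT alone (1.07).

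The order of the group levels differed between genes. PLAU ran from vector Dox and vector EtOH, which did not differ beyond their spread, through JUN Dox to JUN EtOH, with 6.91-fold between the extremes. PLAUR ran from vector EtOH through vector Dox to the JUN groups, whose difference lay within their spread, over 2.83-fold. PLAT ran from vector Dox through vector EtOH and JUN EtOH to JUN Dox over 5.3-fold. SERPINE2 ran from JUN Dox and JUN EtOH to vector Dox and vector EtOH over 6.13-fold, and neither the JUN pair nor the vector pair passed the test. SERPINB2 ran from vector EtOH through vector Dox and JUN EtOH to JUN Dox over 75.1-fold. Each neighbouring pair passed, but the vector pair did so in only 13 of 19 alternatives.

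Per kilobase of all annotated exons, PLAU was the most abundant of the 6 genes in vector EtOH (5.87 ± 0.708 CPM per kb). SERPINB2 was the least abundant of those detected (0.287 ± 0.0357). In CPM, PLAU (17.3) lay below PLAT (22.0), SERPINE2 (20.3) and PLAUR (19.8) in that group, so its first place rests on the exon lengths. PLAUR stood at 4.44 ± 0.188, PLAT at 2.83 ± 0.294 and SERPINE2 at 2.27 ± 0.514 CPM per kb in that group (SD, n = 3). In JUN Dox, PLAU stood at 23.6 ± 4.71, SERPINB2 at 21.5 ± 1.87, PLAUR at 12.6 ± 0.417, PLAT at 11.2 ± 0.963 and SERPINE2 at 0.37 ± 0.0254 CPM per kb. The ratio of SERPINB2 to SERPINE2 per kilobase was 0.129 ± 0.0236 without and 0.247 ± 0.0303 with Dox in vector cells, and 15.9 ± 0.971 and 58.6 ± 9.15 in JUN cells. The aligner did not split reads at introns, so genes with many short exons are undercounted on this scale. The nearly equal counts of C10orf55 gave 7.04 ± 0.817 CPM per kb in vector EtOH. The annotation used for counting is not stated, so these exon lengths may differ from the regions counted.

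The summed level of both activators per kilobase was 8.69 ± 0.789 CPM per kb without and 7.61 ± 1.54 with Dox in vector cells, and 45.1 ± 7.76 and 34.8 ± 5.66 CPM per kb in JUN cells. The summed level of SERPINB2 and SERPINE2 was 2.55 ± 0.533, 2.43 ± 0.363, 7.24 ± 1.17 and 21.9 ± 1.85 CPM per kb in that order (SD, n = 3). Both sums were higher in every JUN library than in every vector library. The serpin sum was also higher in every JUN Dox library than in every JUN EtOH library. The activator sums of these groups overlapped, at 37.11 to 52.62 in JUN EtOH and 29.27 to 40.59 in JUN Dox. Each JUN Dox library lay below the JUN EtOH library of the same replicate number in its activator sum. The labels do not say whether these numbers pair libraries. SERPINB2 made up 11.5% ± 1.88 of the serpin sum without and 19.8% ± 1.91 with Dox in vector cells, and 94.0% ± 0.306 and 98.3% ± 0.231 in JUN cells. The pair thus held mostly SERPINE2 in vector cells and mostly SERPINB2 in JUN cells. These sums were formed after the values were seen and were not tested. They are RNA levels, which do not measure protease or inhibitor activity, and their scale rests on the exon lengths.

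**Figure D3:**
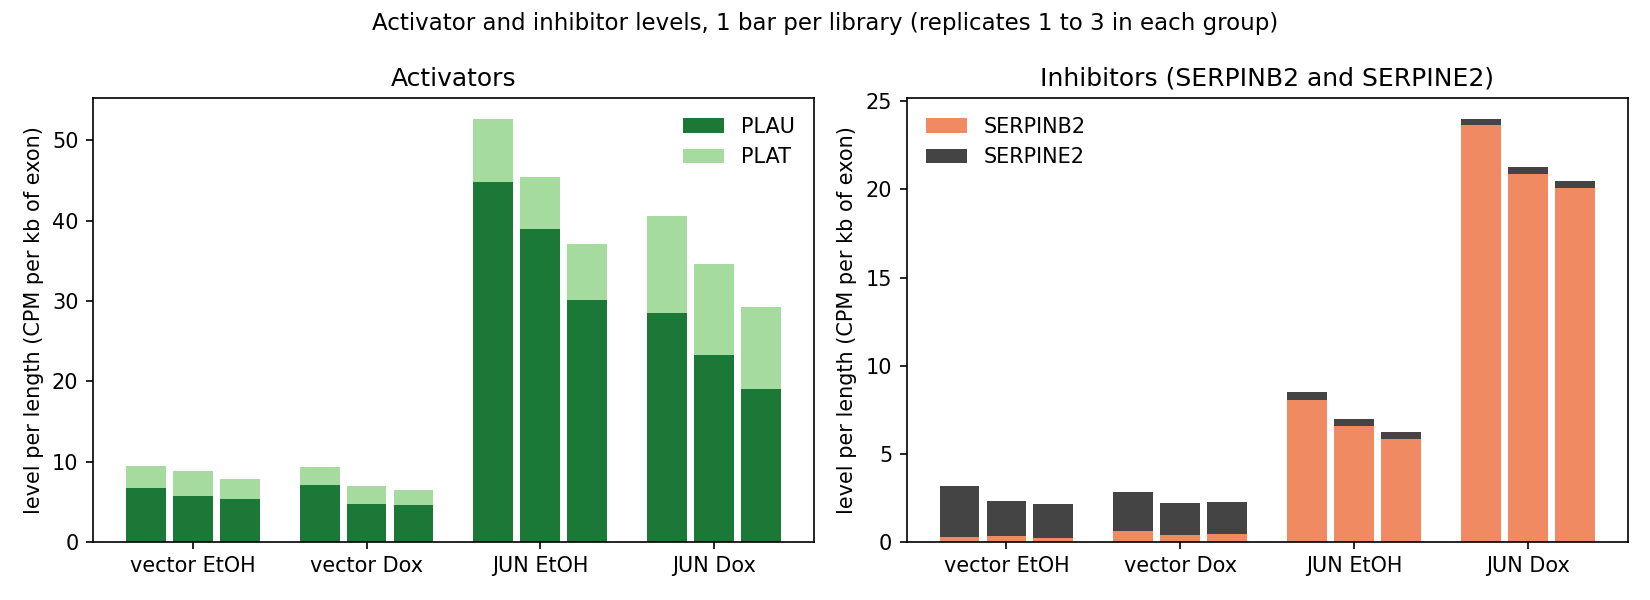
Level per kilobase of exon (CPM per kb, linear axes from 0 that differ between panels) of the activators on the left and of SERPINB2 and SERPINE2 on the right, stacked, with 1 bar per library and replicates 1 to 3 in each group. PLAU and PLAT together reached 45.1 ± 7.76 in JUN EtOH, and SERPINB2 formed most of the serpin bars in JUN cells.

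Genes of the wider plasminogen system rose more often than they fell with JUN. Of 29 listed genes, 20 were tested, and 12 rose and 3 fell with JUN without induction (median log2 fold change 0.555), while 11 rose and 3 fell with JUN under induction (median 0.72). Of all tested genes, 20.1% rose and 18.9% fell in the first of these comparisons, and 18.4% rose and 17.2% fell in the second. Risers included the gene for the scavenger receptor LRP1, which clears protease and serpin complexes (1.32, edgeR adjusted p 9.21e-05), and ITGB3, an integrin subunit gene, at a low level of 0.155 CPM in vector EtOH and 1.32 in JUN EtOH (3.11, edgeR adjusted p 0.00255). VLDLR, a further clearance receptor gene, rose from 0.574 ± 0.172 to 7.69 ± 1.9 CPM (3.74, edgeR adjusted p 1.4e-07). F12, the gene of coagulation factor XII, fell by 1.65 (edgeR adjusted p 1.43e-06) and ST14, the gene of the membrane protease matriptase, differed by -0.62 (edgeR adjusted p 0.000187). Plasminogen itself was at the limit, with at most 4 counts of PLG in a library.

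With induction in vector cells 2 of the 20 rose and 5 fell (median -0.173), and in JUN cells 1 rose and 6 fell (median -0.313). The share of all tested genes that passed was 30.1% in vector cells, close to the 7 of 20 here, and 21.4% in JUN cells. LRP1 fell in both, with log2 fold changes of -1.67 (edgeR adjusted p 2.58e-05) and -1.22 (edgeR adjusted p 0.000316). SERPINF2, the antiplasmin gene, fell by 3.10 (edgeR adjusted p 0.00131) and SERPINA5, the gene of the protein C inhibitor, by 3.08 (edgeR adjusted p 7.62e-05) in vector cells, from 1.68 and 2.12 CPM in vector EtOH. PLGRKT, a plasminogen receptor gene, rose in both, by 0.71 and 0.75 (edgeR adjusted p 0.000246 and 0.00024). ANXA2 and S100A10, whose products form another plasminogen receptor and which were singled out after their values were seen, stood at 487.1 and 400.1 CPM in vector EtOH and did not pass in either comparison. The difference between the inductions passed for 1 of the 20, VLDLR, where 1.12% of all tested genes passed. Induction changed VLDLR by 1.42 in vector cells and by -0.31 in JUN cells (edgeR adjusted p 0.00336 and 0.337). The call for the difference held in 8 of 17 alternatives. The 7 calls for induction in JUN cells became 4 without JUN EtOH replicate 2.

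The other clade B serpins, the intracellular family of SERPINB2, were more often higher with JUN and more often lower with induction. Of 12 listed, 7 were tested. With JUN without induction 5 rose and none fell (median 0.854), and 2 did not pass, whereas induction in JUN cells gave 1 higher and 4 lower (median -0.945). SERPINB1, which inhibits neutrophil proteases, moved up with JUN by 1.25 and down with induction by 1.00 in vector cells and 1.25 in JUN cells (edgeR adjusted p 6.47e-07, 7.51e-06 and 1.41e-06). SERPINB5, the maspin gene, fell with induction by 0.77 and 0.95 in vector and JUN cells. SERPINB7 alone of the 7 rose in all 4 pairwise comparisons, as SERPINB2 did, from 0.805 CPM in vector EtOH to 4.28 in JUN Dox. Induction in vector cells gave 1 higher and 3 lower, JUN under induction 4 higher and 1 lower, and the difference between the inductions passed for none by edgeR and for 1 by DESeq2. The shares of all tested genes that passed were 39% for JUN without and 35.6% with induction, and 30.1% and 21.4% for induction in vector and JUN cells. For the difference between the inductions the share was 1.12% by edgeR. The 5 calls for induction in JUN cells became 3 without JUN EtOH replicate 1 or any JUN Dox replicate, and the 5 for JUN under induction became 3 without vector Dox replicate 2.

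**Figure D4:**
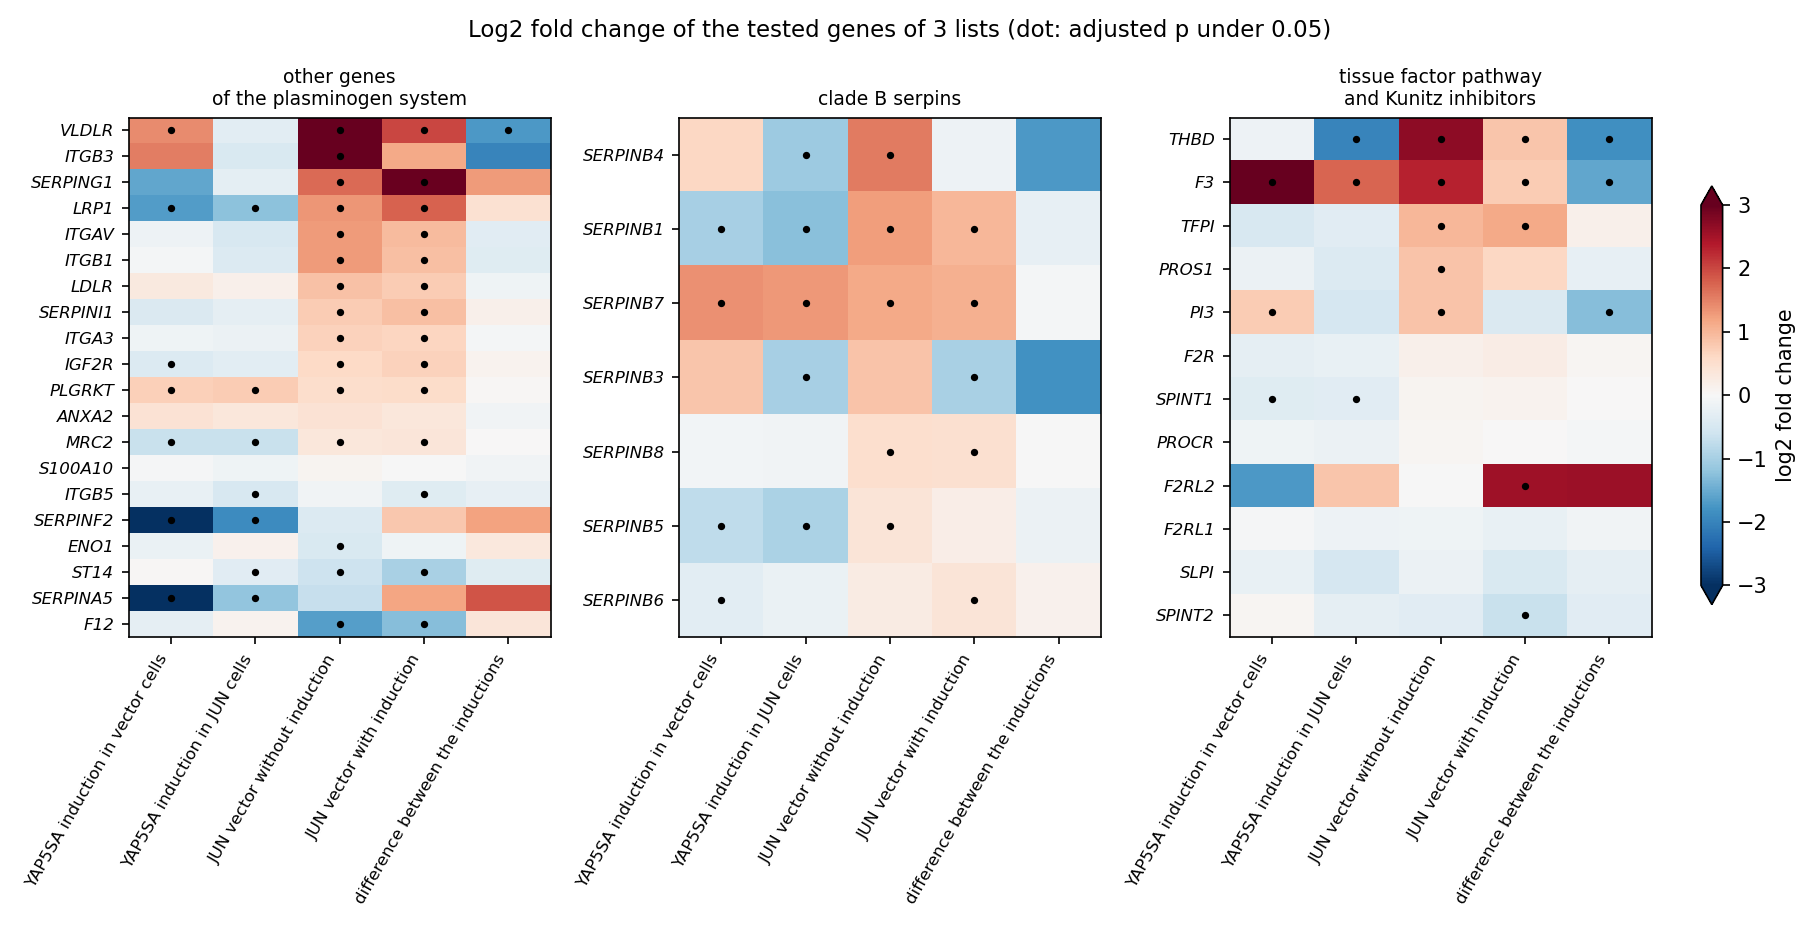
Log2 fold change (colour, limited to 3 in either direction) of the tested genes of 3 lists in 4 pairwise comparisons and in the difference between the inductions, ordered by the change with JUN without induction. Dots mark an edgeR adjusted p under 0.05. In the plasminogen system 12 of 20 genes rose with JUN without induction, and LRP1 rose with JUN and fell with induction.

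Of 7 genes of the FOS, JUN and ATF families besides JUN, induction in vector cells raised 2 and lowered 3 (30.1% of all tested genes passed), and JUN without induction raised 2 and lowered 1 (39%, near the share here). FOSL1 rose in these comparisons by 1.44 and 1.14 log2 units (edgeR adjusted p 9.28e-07 and 9.18e-06), and FOS fell with induction by 2.79 (edgeR adjusted p 1.24e-07) and differed by -0.40 with JUN (edgeR adjusted p 0.0857). Induction in JUN cells raised 1 and lowered 4 (21.4% of all tested genes passed), and JUN under induction raised 1 and lowered 2 (35.6%). Among the 7, FOSL2 passed the test of the difference between the inductions, which 1.12% of all tested genes passed.

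Across the 12 libraries the 4 genes that rose with JUN varied together, with Pearson r of log2 CPM from 0.889 (PLAU and PLAT) to 0.967 (PLAT and SERPINB2), and SERPINE2 ran against them at -0.922 to -0.967. These values describe 4 groups of 3 libraries each and rest on the group differences. Among 11399 genes (11398 for PLAU) with a mean of at least 5 CPM, those closest to PLAU were FCMR (0.990) and GSDME (0.986), to PLAUR the chemokine genes CXCL8 (0.985) and CXCL3 (0.983), and to PLAT the genes LURAP1L (0.989) and EPGN (0.986). SYT8 (0.986) and FBLN1 (0.982) were closest to SERPINE2, and CFL2 (0.993) and CD24 (0.991) to SERPINB2. The span of FCMR overlaps IL24 in the annotation, so its reads are uncertain. Another entry of the count table differed from CD24 by at most 6 reads in every library, so the reads of CD24 are uncertain too.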

How the data were processed

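The deposited file held unnormalized read counts per Entrez gene for 12 libraries. According to the study's methods, they trimmed single-end reads with Cutadapt (4.2 in the submitters' processing notes), aligned them to hg19 with Bowtie2 (2.3.5.1 in those notes, another version in the methods) at default settings, which does not split reads at introns, and counted them with countOverlaps. The annotation and any use of strand are not given in the sources used here, so overlapping genes can share reads. The deposited counts were tested with edgeR 4.0.16 under R 4.3.3 (limma 3.58.1): filterByExpr (minimum count 10, minimum total 15) kept 14775 of 23459 genes, and 1 robust quasi-likelihood model of the 4 groups was fitted with TMM scaling (biological coefficient of variation 12.5%). Genes were called at a Benjamini-Hochberg adjusted p under 0.05 over all tested genes, and the SE was derived from the fold change and its F statistic. The difference between the inductions subtracts the effect in vector cells from that in JUN cells. CPM used TMM-scaled totals. Symbols for 99.4% of IDs and upstream sequences came from RefSeq, and positions and exon lengths from GENCODE on GRCh37, the assembly of hg19.

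The 6 genes, the lists and the rule for named genes (the 6 genes, genes overlapping them, JUN, YAP1, up to 6 called genes of a list with the largest change in a comparison, and the 3 genes most like each member by Pearson r, of which the closest are given) were chosen with earlier results of these data known. Alternatives were DESeq2 1.42.0, DESeq2-type (RLE) and upper-quartile factors, no filter, a mean of at least 5 CPM, only the libraries compared, the replicate number as a block, and each library left out. In data simulated for induction in vector cells the test called 86.9% of 99 genes changed by 1 log2 unit and 99.0% of 99 changed by 2, with 14586 genes in the fit. The other 14388 genes were unchanged, whereas 30.1% of tested genes passed in the data. The simulated spread followed the trend with level and did not vary between genes of like level. These rates therefore check the code and do not give the power for the smaller changes reported here. Library totals (18594867 to 28993487 counts) set a floor of 3 counts. The replicate numbers were checked and not used to pair libraries. A listed gene of the plasminogen system is not reported here and was left out of the list counts.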

Additional observations from a re-analysis of the deposited data

Results flagged for a closer look

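By edgeR's test of the difference itself, the response to induction differed between JUN and vector cells for PLAT and for 5 genes of the lists. By list, 1 of 20 tested genes of the plasminogen system passed, 3 of 12 of the tissue factor pathway and 1 of 7 of the FOS, JUN and ATF families. None of the 7 tested clade B serpins passed. Of all tested genes 1.12% passed, 0.291% higher and 0.826% lower. PLAT differed by 1.07 log2 units (edgeR adjusted p 0.00238), falling with induction in vector cells and rising in JUN cells. VLDLR differed by -1.73 (edgeR adjusted p 0.0387), at a mean of 0.574 CPM in vector EtOH. It did not pass without any of the vector EtOH replicates, vector Dox replicate 1 or 2, JUN EtOH replicate 1 or 3, or JUN Dox replicate 2 or 3. THBD differed by -1.84 (edgeR adjusted p 3.74e-05) and F3 by -1.55 (edgeR adjusted p 0.00949), and both calls held in all 18 alternatives. PI3 differed by -1.27 (edgeR adjusted p 0.0408), which held in 7 of 18 alternatives (adjusted p-values 0.00133 to 0.129). Its call was lost with no filter on low counts, with the replicate block (edgeR adjusted p 0.0649), and without any of the vector EtOH or JUN EtOH replicates, vector Dox replicate 1 or 2, or JUN Dox replicate 3. FOSL2, an AP-1 partner of JUN, differed by -0.94 (edgeR adjusted p 0.0294), which held in 9 of 18 alternatives (adjusted p-values 0.000637 to 0.103). It was lost without vector EtOH replicate 2 or 3, vector Dox replicate 2 or 3, any of the JUN EtOH replicates, or JUN Dox replicate 2 or 3.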

How the results depend on the processing

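In the JUN comparisons all 5 tested genes were called under every alternative run, and the scaling alternatives moved the median of all genes by at most 0.0479 log2 units. Induction in vector cells was least stable: 3 of the 5 genes were called, 1 with upper-quartile factors, 1 with only the libraries compared, and 0 to 3 with 1 library left out (0 without vector EtOH replicate 2). The change of PLAU there ranged from -0.338 to 0.0174 over the libraries left out. In JUN cells the change of PLAUR was -0.0040 with a minimum mean level of 5 CPM and ranged from -0.0493 to 0.159 over the libraries left out. The difference between the inductions for SERPINE2 ranged from -0.19 to 0.13.

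Counts over all genes moved by over 1.5 times as follows. JUN without induction gave 5766 calls, and 3823 to 6765 with 1 library left out (3823 without JUN EtOH replicate 1). Induction in JUN cells gave 3168, and 2082 to 3861 (2082 without JUN EtOH replicate 2). JUN with induction gave 5267, and 3439 with only the libraries compared. The difference between the inductions gave 165, 340 with DESeq2, and 97 to 242 with 1 library left out (97 without vector EtOH replicate 3, 99 without JUN EtOH replicate 2, 107 without JUN EtOH replicate 1). The fewer samples of the smaller fits are part of their construction, and the cause of the other shifts was not tested. Of the list counts, 30 moved by over 1.5 times and 498 did not.

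Libraries with the same replicate number deviated together in some pairs and not in others. Of 18 same-numbered pairs of libraries, 7 had deviations that correlated over 0.1 (from -0.258 to 0.466, median 0.088), and in 11 of 18 comparisons of a library with the libraries of another group the correlation was highest at its own number, a hint from the data and not from the design. With the replicate number as a block, 4588, 5871, 3256 and 5329 genes were called for induction in vector cells, JUN without induction, induction in JUN cells and JUN with induction, and the counts among the 5 genes stayed 3, 5, 3 and 5. The SE of PLAU for JUN with induction was 0.195 without and 0.103 with the block. At this depth SERPINB2 in vector cells (15 to 39 reads) and TFPI2 carry the widest counting error.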

Other observations

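Genes of the neighbouring clotting pathway passed about as often as all tested genes in the 4 pairwise comparisons, but not in the difference between the inductions. Of 14 listed genes of the tissue factor pathway and Kunitz or related inhibitors, 12 were tested. JUN without induction raised 5 and lowered none (39% of all tested genes passed), and JUN under induction raised 4 and lowered 1 (35.6%). Induction in vector cells raised 2 and lowered 1 (30.1% of all tested genes passed), and induction in JUN cells raised 1 and lowered 2 (21.4%). The difference between the inductions passed for 3 of the 12, F3, THBD and PI3, all negative, where 1.12% of all tested genes passed. The 3 calls for induction in vector cells became 1 without vector EtOH replicate 3. F3, the tissue factor gene that starts clotting, rose with induction from 87.5 ± 20.1 to 861.2 ± 166 CPM in vector cells and from 432.7 ± 89.7 to 1450 ± 232 CPM in JUN cells (SD, n = 3). The log2 changes with induction were 3.30 in vector cells and 1.75 in JUN cells (edgeR adjusted p 3.12e-08 and 1.88e-05).

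THBD, the gene of the thrombin receptor thrombomodulin, was highest in JUN EtOH. It stood at 42.4 ± 2.65 CPM without and 38.2 ± 6.24 with Dox in vector cells, and at 270.8 ± 28.5 and 68.2 ± 0.795 CPM in JUN cells. JUN raised it by 2.67 log2 units without induction (edgeR adjusted p 1.3e-09), and induction changed it by -1.99 in JUN cells (edgeR adjusted p 5.28e-08) and by -0.15 in vector cells (edgeR adjusted p 0.354). TFPI, which encodes the inhibitor of the tissue factor pathway, rose with JUN by 0.99 (edgeR adjusted p 0.00334). PI3, the elafin gene, rose with induction by 0.77 in vector cells (edgeR adjusted p 0.00893) and changed by -0.50 in JUN cells (edgeR adjusted p 0.0889).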
